A study of Mus musculus with 12 samples.

Results

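The transcripts of hairless (Hr), of 4 nuclear receptors that hairless is known or reported to bind, and of 2 genes used as readouts of thyroid hormone and vitamin D were followed in mouse cardiac fibroblasts. The 7 genes (Hr, Thra, Thrb, Vdr, Rora, Klf9 and Cyp24a1) were looked up by symbol in the count table, where all 7 were found among 24619 genes. They were chosen by the size of the Hr increase in OE_CM against VEC_CM, one of the largest there, and by known links to hairless, so values of that comparison are given for the 7 genes as a description, with no test. The question was whether Hr is high where its receptors are high, or where genes that answer to thyroid hormone or vitamin D are high.

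The cells were primary cardiac fibroblasts of the mouse, which make most of the matrix of the heart. They were grown with 10% serum, starved over 12 h and held in conditioned medium from lentivirus-infected adipocytes for 24 h. OE_CM was the medium of adipocytes overexpressing the human microRNA hsa-miR-548ay. TGF_KD_CM combined TGF-beta1 with the medium of adipocytes in which this microRNA was inhibited, and TGF_VEC_CM combined TGF-beta1 with medium of vector-infected adipocytes. VEC_CM was the medium of vector-infected adipocytes without TGF-beta1, and each of the 4 groups had 3 libraries. Strain and age of the mice are not given in the labels, the medium of a lentivirus-infected culture carries everything those adipocytes released, and the microRNA itself was not measured in the fibroblasts here. Whether TGF-beta1 was in the medium or added to it was not settled, and the labels place OE_CM and VEC_CM in one part of the study and both TGF-beta1 groups in another. The sample titles defined the groups, since in the treatment field replicates 2 and 3 of OE_CM and of TGF_KD_CM carry other names (miR-549ay, miR-550ay). The labels do not say that the libraries of a group are separate cultures, so p-values cover the spread among these libraries only, and that spread may be technical.

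Hairless is a nuclear corepressor with a Jumonji domain, best known from skin, where its loss in mouse and human stops hair regrowth after the first cycle. It binds thyroid hormone receptors, the vitamin D receptor and ROR alpha and represses transcription through histone deacetylases, and in rodent brain the Hr gene is itself switched on by thyroid hormone. Nuclear receptors such as those of thyroid hormone and vitamin D bind DNA as partners of RXR, recruit corepressors of the NCoR and SMRT type without ligand and coactivators with it.

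The promoter windows of Vdr and Klf9 are shown because Vdr was the receptor of this set with the highest deposited FPKM and Klf9 is a direct thyroid hormone target gene. Both come from RefSeq promoters of GRCm38.p6 and run from 250 bases before to 50 bases after the annotated start. Entries were found for 4 of the 7 genes (Thrb, Vdr, Rora and Klf9). The Vdr window is chr15:97908247-97908546 on the minus strand and the Klf9 window is chr19:23140976-23141275 on the plus strand. Capitals mark matches to the motifs named after them, and lower case marks all other bases.
Vdr promoter: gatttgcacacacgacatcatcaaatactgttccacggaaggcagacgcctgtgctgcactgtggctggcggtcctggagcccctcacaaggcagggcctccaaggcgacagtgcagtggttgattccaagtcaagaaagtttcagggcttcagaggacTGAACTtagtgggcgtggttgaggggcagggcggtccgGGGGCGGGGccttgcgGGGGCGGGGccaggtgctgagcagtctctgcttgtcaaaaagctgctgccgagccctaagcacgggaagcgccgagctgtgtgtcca
Klf9 promoter: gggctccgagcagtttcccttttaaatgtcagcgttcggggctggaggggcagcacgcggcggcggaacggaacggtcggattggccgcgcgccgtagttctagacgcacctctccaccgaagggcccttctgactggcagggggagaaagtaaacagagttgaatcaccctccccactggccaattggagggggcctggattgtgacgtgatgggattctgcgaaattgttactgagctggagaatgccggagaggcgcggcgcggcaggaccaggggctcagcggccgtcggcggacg

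Searched on both strands were AGGTCA, the hexamer of thyroid hormone receptors and RORs, its direct repeats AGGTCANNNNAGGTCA and AGGTCANNNAGGTCA, AGTTCA, a hexamer found in vitamin D response elements, and the GC box GGGGCGGGG, a motif of Sp and KLF proteins. The direct repeats contain AGGTCA and so overlap with it. The Vdr window held TGAACT, the reverse complement of AGTTCA, beginning 91 bases before the start, and 2 GC boxes beginning 53 and 37 bases before it. The Klf9 and Rora windows held none of the 5 motifs, and of the 2 Thrb windows 1 held AGGTCA and 1 held TGAACT. Among 32851 RefSeq promoters of the same length, AGGTCA was present in 16.3%, AGTTCA in 14.0%, the GC box in 11.4%, and the direct repeats in 0.0152% (4 bases between) and 0.00609% (3 bases between). A match describes the letters of the window and no binding was measured. Sites outside the windows were not searched, and with direct repeats this rare their absence from a window says little.

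The 12 libraries held between 33379207 and 37226153 counts, and 3 counts, the floor used here, stood for 0.0805 to 0.0939 CPM (library-scaled counts, TMM factors included); floors cover counting error only. Along the fourth principal component of log CPM, with 3.81% of the variance, OE_CM replicate 1 (score 27.8) stood apart from OE_CM replicates 2 and 3 (-14.6 and -12.0); without it the log2 fold change of Hr in OE_CM against VEC_CM was 3.32. Of 10 fibroblast markers 9 were in the table and 7 lay above the floor in every library, with summed levels of 9790 to 10038 CPM in OE_CM, 9418 to 9738 in TGF_KD_CM, 8582 to 8667 in TGF_VEC_CM and 9467 to 9565 in VEC_CM. These sums were mostly Col1a2, Vim and Col1a1. Thy1 averaged between 0.246 and 0.366 CPM over the groups and Dcn between 0.119 and 0.146 CPM. Lum, another marker of the list, had at most 1 count in a group. Hairless is best known from keratinocytes and neurons. The 10 keratinocyte and hair follicle markers present summed to 10.1 to 11.2 CPM in OE_CM, 12.8 to 15.5 in TGF_KD_CM, 13.9 to 16.0 in TGF_VEC_CM and 12.1 to 14.7 in VEC_CM, mostly Trp63. Krt5 had 0, 1, 5 and 0 counts in the 3 libraries of OE_CM, TGF_KD_CM, TGF_VEC_CM and VEC_CM together, and the 8 neuron markers summed to at most 2.63 CPM in any library.

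Hr was high in 3 of the 4 media and low in VEC_CM. It had 61.1, 61.1 and 67.9 CPM in the OE_CM libraries, 47.5, 42.8 and 50.5 CPM in TGF_KD_CM, 76.1, 73.1 and 74.7 CPM in TGF_VEC_CM and 6.53, 6.80 and 5.96 CPM in VEC_CM. The group order ran TGF_VEC_CM, OE_CM, TGF_KD_CM, VEC_CM, and no neighbours in that order overlapped. Hr lies on chromosome 14 (GRCm38, 70554056 to 70573548, plus strand, NCBI gene 15460), and its VEC_CM values rest on 240, 249 and 218 counts, well above the floor. In bulk RNA, fewer cells of a type and less RNA per cell cannot be told apart, here or for any gene that follows.

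OE_CM averaged 63.4 ± 3.94 CPM of Hr and VEC_CM 6.43 ± 0.427 CPM (SD, n = 3 each), a 9.84-fold higher level in OE_CM (log2 3.30 ± 0.066 SE). TGF_VEC_CM averaged 74.7 ± 1.50 CPM, 11.6-fold above the same VEC_CM libraries (log2 3.54 ± 0.065 SE), a value given without a test because those libraries entered the choice of Hr. TGF-beta1 and the part of the study cannot be told apart in it. On the log2(FPKM + 1) scale, which understates the change of low genes, the difference was 2.40 for OE_CM and 2.73 for TGF_VEC_CM against VEC_CM.

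Inhibiting the microRNA in the adipocytes gave a test of Hr on libraries outside the comparison whose values chose it. Earlier results of these data were still known at the choice, and the fit shared its estimate of the spread over all 12 libraries. Hr averaged 46.9 ± 3.89 CPM in TGF_KD_CM and 74.7 ± 1.50 CPM in TGF_VEC_CM (SD, n = 3 each), and every TGF_KD_CM library lay below every TGF_VEC_CM library. Hr fell by 0.67 ± 0.049 SE on the log2 scale, which is 1.59 times lower (95% interval of log2 -0.77 to -0.57; edgeR quasi-likelihood test, Benjamini-Hochberg adjusted p = 2.55e-18). In this comparison 6229 of 14400 genes, or 43.3%, passed the same test, and by size of change Hr ranked 1461st. TGF_KD_CM remained 7.29 times above VEC_CM in mean CPM, a comparison across both parts of the study.

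Markers of other cell types differed between the media as well, and their part in the differences of Hr was not tested. The cardiomyocyte markers in the table, 6 of 8 with 1 above the floor in every library, summed to 161 to 165 CPM in OE_CM, 95.6 to 102.6 in TGF_KD_CM, 102.8 to 114.0 in TGF_VEC_CM and 68.2 to 74.3 in VEC_CM. Almost all of this was Tnnt2, cardiac troponin T, and Actc1 and Myl2 were at 0 in OE_CM and VEC_CM. The 7 adipocyte markers, mostly Fabp4, summed to 97.5 to 101.7 CPM in OE_CM, 151.9 to 162.8 in TGF_KD_CM, 186.1 to 198.1 in TGF_VEC_CM and 264.7 to 279.1 in VEC_CM, with the defining hormone gene Lep at 0 in OE_CM, TGF_VEC_CM and VEC_CM. The 7 leukocyte markers summed to 16.7 to 29.0 CPM in OE_CM, 23.1 to 25.5 in TGF_KD_CM, 29.1 to 32.0 in TGF_VEC_CM and 35.9 to 38.7 in VEC_CM, and the 6 endothelial markers to at most 1.80 CPM in any library. The cardiomyocyte sum was thus lowest in VEC_CM, as Hr was, and the adipocyte and leukocyte sums were highest there. Single markers did not all follow their sum. The adipocyte marker Cidec was lowest in VEC_CM, at 7.92 CPM, against 13.2 in OE_CM, 17.0 in TGF_KD_CM and 11.2 in TGF_VEC_CM.

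**Figure D1:**
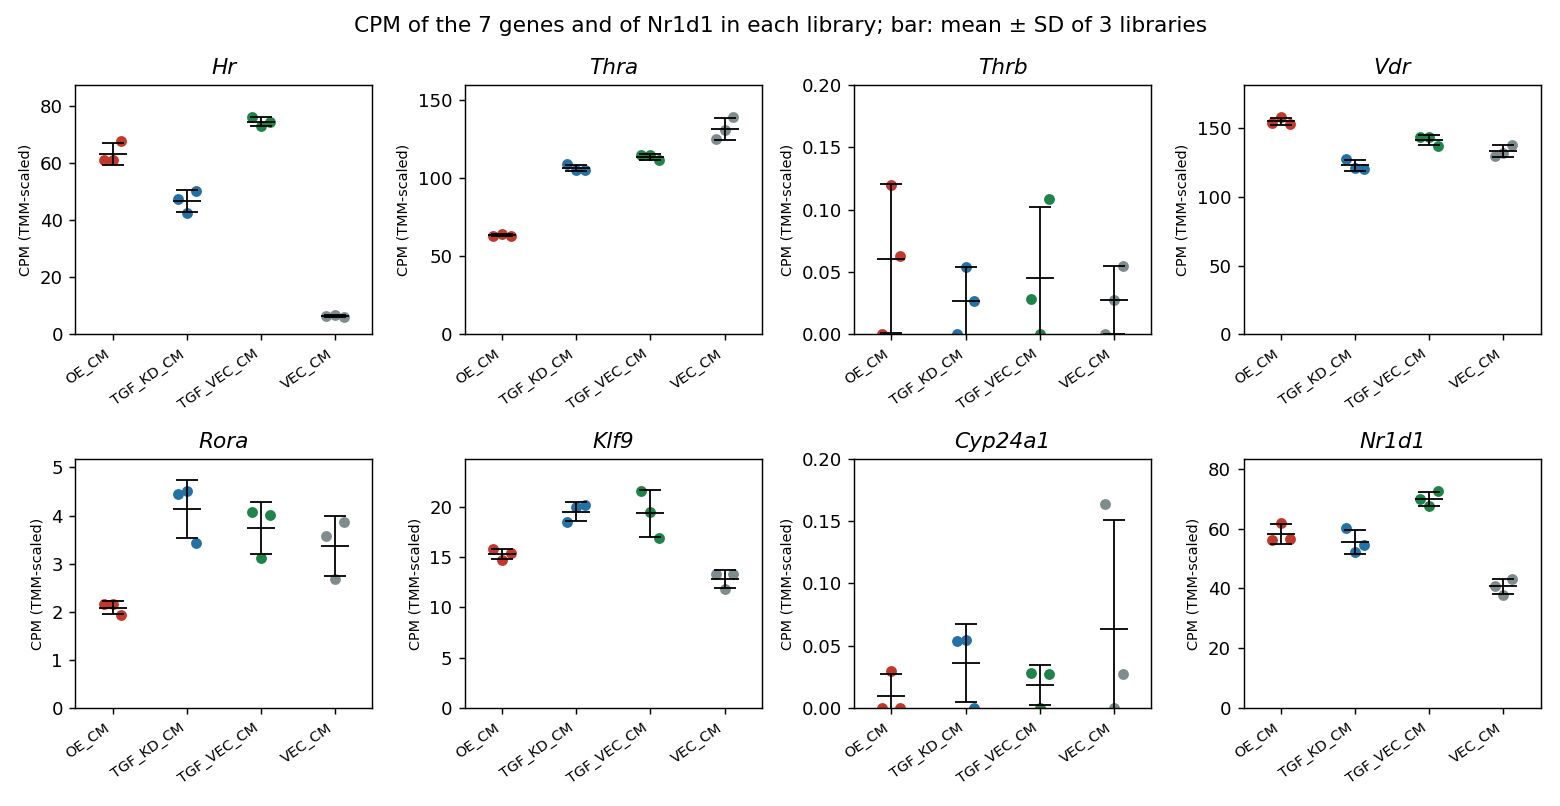
CPM (vertical axes, linear, from 0) of the 7 genes and of Nr1d1, which overlaps Thra, in each library of the 4 groups; points are libraries and bars are mean ± SD of 3 libraries. Hr sat between 42.8 and 76.1 CPM in 3 groups and near 6 CPM in VEC_CM, and Thra was lowest in OE_CM at 63.0 to 64.0 CPM.

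Of the receptors, Thra was lowest in the medium of overexpressing adipocytes. Thra encodes thyroid hormone receptor alpha, the main thyroid hormone receptor of the heart, and lies on chromosome 11 (98740776 to 98769006, plus strand, NCBI gene 21833). It had 63.2, 64.0 and 63.0 CPM in OE_CM, 108.7, 105.1 and 105.3 CPM in TGF_KD_CM, 114.4, 114.4 and 111.2 CPM in TGF_VEC_CM and 124.6, 130.4 and 138.6 CPM in VEC_CM. Neighbouring groups did not overlap, and their order ran VEC_CM, TGF_VEC_CM, TGF_KD_CM, OE_CM, so that the group with the highest Thra was the one with the lowest Hr.

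The level of Thra was 2.07 times lower in OE_CM than in VEC_CM (log2 -1.05 ± 0.036 SE), opposite in direction to Hr. Between TGF_KD_CM and TGF_VEC_CM it fell in TGF_KD_CM by 0.09 ± 0.035 on the log2 scale, the same direction as Hr but smaller (95% interval -0.16 to -0.02; edgeR adjusted p = 0.0268). That call was lost when genes of low counts were kept in the fit (log2 -0.08, edgeR adjusted p = 0.0699). Thra also fell in TGF_VEC_CM against VEC_CM, by 0.21 ± 0.034 (edgeR adjusted p = 2.39e-07), with the VEC_CM libraries shared with the comparison that chose Hr.

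The 3′ end of Thra overlaps Nr1d1 on the opposite strand, by 1075 bases of which 263 are exonic in both genes (GENCODE M21). The strand setting of the counting is not given in the sources used here, so reads of the 2 genes in that stretch cannot be told apart. Nr1d1, the repressor REV-ERB alpha, had 56.1, 62.0 and 56.6 CPM in OE_CM, 60.0, 52.1 and 54.5 CPM in TGF_KD_CM, 69.7, 67.6 and 72.5 CPM in TGF_VEC_CM and 40.9, 37.9 and 43.0 CPM in VEC_CM. It was thus lowest in VEC_CM, where Thra was highest. It rose in OE_CM against VEC_CM (log2 0.52 ± 0.050 SE, edgeR adjusted p = 2.55e-13), fell in TGF_KD_CM against TGF_VEC_CM (-0.33 ± 0.048, adjusted p = 5.72e-08) and rose in TGF_VEC_CM against VEC_CM (0.78 ± 0.049, adjusted p = 1.52e-20). In each of the 3 comparisons Nr1d1 thus had the sign of Hr. Counts per gene do not separate the hormone-binding isoform of Thra from the isoform that does not bind hormone.

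Thrb, the gene of thyroid hormone receptor beta (chromosome 14, 17659225 to 18040097, plus strand, NCBI gene 21834), was barely detected. It had 0, 4 and 2 counts in OE_CM, 0, 2 and 1 in TGF_KD_CM, 1, 0 and 4 in TGF_VEC_CM and 0, 1 and 2 in VEC_CM. All groups overlapped, 2 libraries exceeded the floor of 3 counts, and Thrb was too low to be tested in the filtered fit. Any difference between groups was not detectable at this depth.

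Vdr, the vitamin D receptor gene whose promoter is printed above, was abundant in every medium and varied little. It lies on chromosome 15 (97854427 to 97908296, minus strand, NCBI gene 22337) and had 153.3, 157.4 and 153.0 CPM in OE_CM, 127.0, 120.9 and 120.0 CPM in TGF_KD_CM, 143.1, 143.1 and 137.1 CPM in TGF_VEC_CM and 129.7, 131.9 and 137.6 CPM in VEC_CM. OE_CM lay above and TGF_KD_CM below all other libraries, while TGF_VEC_CM and VEC_CM overlapped. The level in OE_CM was 1.16-fold that in VEC_CM (log2 0.22 ± 0.031 SE). Vdr fell in TGF_KD_CM against TGF_VEC_CM, by 0.20 ± 0.031 on the log2 scale (95% interval -0.27 to -0.14; edgeR adjusted p = 1.89e-07), in the same direction as Hr and by a smaller amount.

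In TGF_VEC_CM against VEC_CM the log2 fold change of Vdr was 0.08 ± 0.031 SE (edgeR adjusted p = 0.0177). That call did not hold without VEC_CM replicate 1 (adjusted p = 0.0516), without VEC_CM replicate 2 (adjusted p = 0.0669) or with no filter on low counts (log2 0.06, adjusted p = 0.11). Where Hr stood 11.6-fold higher, Vdr therefore stood at most 1.11-fold higher by its 95% interval (1.02 to 1.11).

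Rora, which encodes ROR alpha, an orphan receptor that activates transcription and that hairless represses in reporter assays, was expressed at a low level. It lies on chromosome 9 (68653404 to 69388246, plus strand, NCBI gene 19883) and had 2.17, 2.15 and 1.94 CPM in OE_CM, 4.45, 4.50 and 3.43 CPM in TGF_KD_CM, 4.07, 3.11 and 4.02 CPM in TGF_VEC_CM and 3.57, 2.68 and 3.86 CPM in VEC_CM. The OE_CM libraries lay below all others and the remaining 3 groups overlapped. The level in OE_CM was lower than in VEC_CM (log2 -0.69 ± 0.184 SE). It did not pass the test in TGF_KD_CM against TGF_VEC_CM (log2 0.14, 95% interval -0.19 to 0.48, edgeR adjusted p = 0.519) or in TGF_VEC_CM against VEC_CM (log2 0.15, 95% interval -0.19 to 0.49, adjusted p = 0.474). These intervals still allow changes of up to 1.40-fold and 1.41-fold.

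Klf9, a zinc finger repressor that thyroid hormone and glucocorticoids induce directly, was lowest in VEC_CM, as Hr was. It lies on chromosome 19 (23141226 to 23168129, plus strand, NCBI gene 16601) and had 15.8, 14.7 and 15.4 CPM in OE_CM, 18.4, 19.9 and 20.2 CPM in TGF_KD_CM, 21.5, 19.5 and 16.9 CPM in TGF_VEC_CM and 13.3, 11.8 and 13.3 CPM in VEC_CM. TGF_KD_CM and TGF_VEC_CM overlapped, and OE_CM lay between them and VEC_CM without overlap.

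The level of Klf9 in OE_CM was 1.19-fold that in VEC_CM (log2 0.25 ± 0.082 SE). In TGF_VEC_CM it averaged 19.3 ± 2.31 CPM, against 12.8 ± 0.861 CPM in VEC_CM (SD, n = 3 each), and rose 1.51-fold (log2 0.59 ± 0.079 SE, edgeR adjusted p = 2.00e-09). Klf9 did not pass in TGF_KD_CM against TGF_VEC_CM, where Hr fell: the log2 fold change was 0.015 with a 95% interval of -0.14 to 0.17 (edgeR adjusted p = 0.894).

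Cyp24a1, the vitamin D 24-hydroxylase, is the standard transcript raised by the ligand-bound vitamin D receptor. It lies on chromosome 2 (170482957 to 170497145, minus strand, NCBI gene 13081) and had 0, 1 and 0 counts in OE_CM, 2, 2 and 0 in TGF_KD_CM, 1, 0 and 1 in TGF_VEC_CM and 6, 0 and 1 in VEC_CM. It exceeded 3 counts in 1 library only, VEC_CM replicate 1, all groups overlapped, and it was too low to be tested in the filtered fit. Its exons share 83 bases with Pfdn4 on the opposite strand, a chaperone subunit gene with mean levels of 63.4 CPM in OE_CM, 48.6 in TGF_KD_CM, 57.9 in TGF_VEC_CM and 50.2 in VEC_CM, so the few counts of Cyp24a1 cannot be assigned to a strand. The receptor was thus abundant while its standard target was at or near 0 in every medium, OE_CM and TGF_VEC_CM included.

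Set against all genes, the 7 behaved as follows. In OE_CM against VEC_CM, the comparison that chose Hr, the fit over all genes put 5 of 5 past the threshold, 3 higher and 2 lower, a count given as a description (4 without VEC_CM replicate 2, 4 with upper-quartile scaling and 3 with limma on log2(FPKM + 1)). Of all 14400 genes 54.0% passed there, 28.4% higher and 25.7% lower, and nothing is read from the count of 5. Over all genes the split in that comparison was 4083 higher and 3695 lower, but 2798 and 5059 with upper-quartile scaling. In TGF_KD_CM against TGF_VEC_CM 3 of 5 fell and none rose, where 20.2% of all genes fell and 43.3% passed in either direction, and the median log2 fold change was -0.09 for the 5 genes and -0.00026 for all genes. In TGF_VEC_CM against VEC_CM 4 of 5 passed, 3 higher and 1 lower, where 58.3% of all genes passed, and the medians were 0.15 and 0.0041. Hr, which has no test there, is among the 4 and among the 3 higher, so this count too is a description. With 5 genes tested and backgrounds this high, the counts do not set the group apart, and Thrb and Cyp24a1 did not pass the filter.

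**Figure D2:**
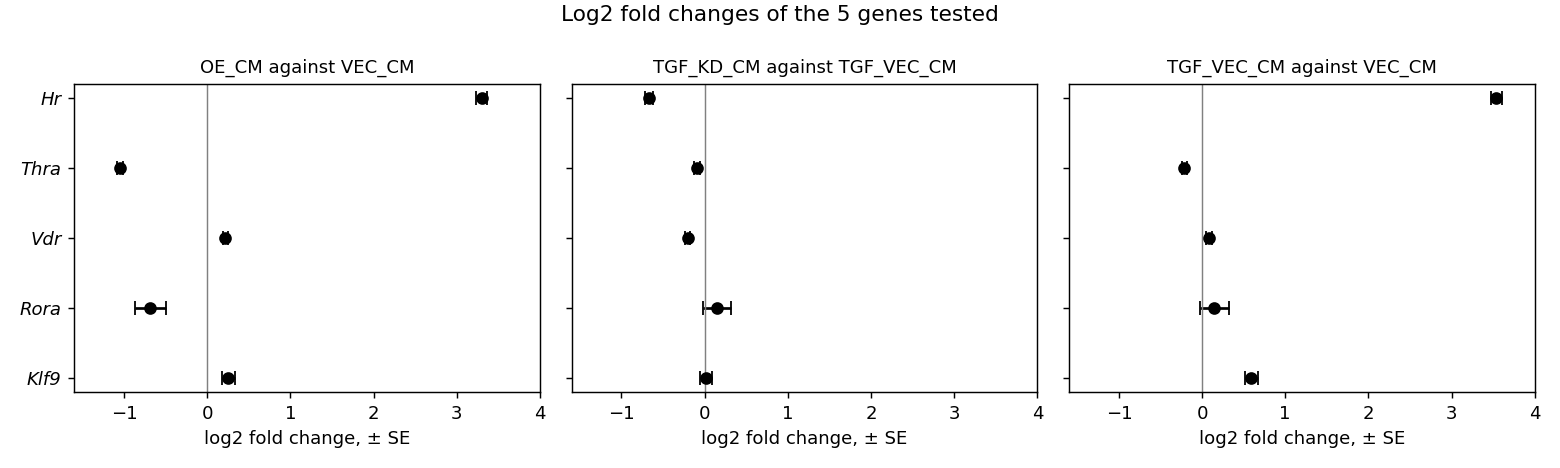
Log2 fold changes (horizontal axes) with bars of ± 1 SE for the 5 genes tested, one panel per comparison, first-named group over the second. Hr stood at 3.30, -0.67 and 3.54, and Thra, Vdr, Rora and Klf9 all lay between -1.05 and 0.59.

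Relative to Thra, the level of Hr per length was highest in OE_CM. On the deposited FPKM scale (counts scaled to gene length and library total), Hr averaged 9.84 ± 0.661 in OE_CM, 7.73 ± 0.674 in TGF_KD_CM, 12.6 ± 0.200 in TGF_VEC_CM and 1.05 ± 0.0697 in VEC_CM (SD, n = 3 each). Thra averaged 9.48, 16.9, 18.4 and 20.7 FPKM and Vdr 33.8, 28.5, 33.5 and 30.7 FPKM in the same order of groups. The ratio of Hr to Thra in FPKM was 1.00, 0.991 and 1.12 in the OE_CM libraries, 0.454, 0.422 and 0.497 in TGF_KD_CM, 0.690, 0.664 and 0.697 in TGF_VEC_CM and 0.0544, 0.0541 and 0.0446 in VEC_CM.

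These ratios did not overlap between any 2 groups, and OE_CM had the highest, since Hr was high and Thra low there. The ratio of Hr to Vdr averaged 0.291 ± 0.0210 in OE_CM, 0.272 ± 0.0244 in TGF_KD_CM, 0.376 ± 0.0120 in TGF_VEC_CM and 0.0344 ± 0.00316 in VEC_CM, so that OE_CM and TGF_KD_CM overlapped. The level of a ratio depends on the gene lengths used, which for Thra were 6364 bases in the deposited FPKM and 4614 exonic bases in GENCODE M21. With GENCODE lengths Hr stood at 8.72 and Thra at 13.1 in OE_CM, below rather than level with it, while the order of the groups is the same with either length. The FPKM of Rora used 51763 bases, against 13071 exonic bases in GENCODE M21, and was 0.0384 in OE_CM, 0.0806 in TGF_KD_CM, 0.0746 in TGF_VEC_CM and 0.0653 in VEC_CM.

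Among 45 nuclear receptor genes in the table, ranked by mean FPKM, Vdr was in place 2 in OE_CM and in place 3 in TGF_KD_CM, TGF_VEC_CM and VEC_CM. Thra ranked 15 in OE_CM, 7 in TGF_KD_CM, 7 in TGF_VEC_CM and 4 in VEC_CM. Rora was in places 32 to 34, with the long gene length given above, and Thrb in places 38 to 41. With GENCODE lengths Thra stood above Vdr in TGF_KD_CM (23.3 against 21.9) and in VEC_CM (28.5 against 23.6), and below it in OE_CM and TGF_VEC_CM.

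The genes with the profile nearest to that of Hr were picked from the whole table, so that they lie nearer than the partners follows from the choice. Likeness was measured as the root mean square difference of log2 CPM over the 12 libraries after each gene was centred on its own mean, so a smaller value is closer, and it is a description with no p. The nearest of 14399 genes included Col27a1 (0.217), a fibrillar collagen chain, Chst3 (0.252), a chondroitin sulfotransferase, Wfdc8 (0.280), the connexin Gja4 (0.310), Ccdc13 (0.334), Rapgef5 (0.346), an exchange factor of Rap proteins, and Adgrg5 (0.389), an adhesion receptor. The median gene lay at 1.44 and a gene with no variation would lie at 1.42. Klf9 lay at 1.23 (place 938), Vdr at 1.38 (place 4222), Rora at 1.53 (place 10830) and Thra at 1.68 (place 13101).

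These genes were expressed at a much lower level than Hr, and since likeness uses the comparison that chose Hr, their values carry no test. Some were near the floor in VEC_CM, where Wfdc8 had 10 and Ccdc13 15 counts in the 3 libraries together. Col27a1 averaged 2.82 ± 0.271 CPM in OE_CM, 1.88 ± 0.273 in TGF_KD_CM, 3.70 ± 0.520 in TGF_VEC_CM and 0.300 ± 0.0266 in VEC_CM (SD, n = 3 each). Adgrg5 averaged 4.09 ± 0.359 CPM in OE_CM, 3.67 ± 0.438 in TGF_KD_CM, 6.11 ± 0.238 in TGF_VEC_CM and 0.801 ± 0.166 in VEC_CM. In OE_CM against VEC_CM their log2 fold changes ran between 2.35 (Adgrg5) and 3.65 (Wfdc8), in TGF_KD_CM against TGF_VEC_CM between -1.13 (Gja4) and -0.73 (Adgrg5), and in TGF_VEC_CM against VEC_CM between 2.93 (Adgrg5) and 4.37 (Wfdc8).

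**Figure D3:**
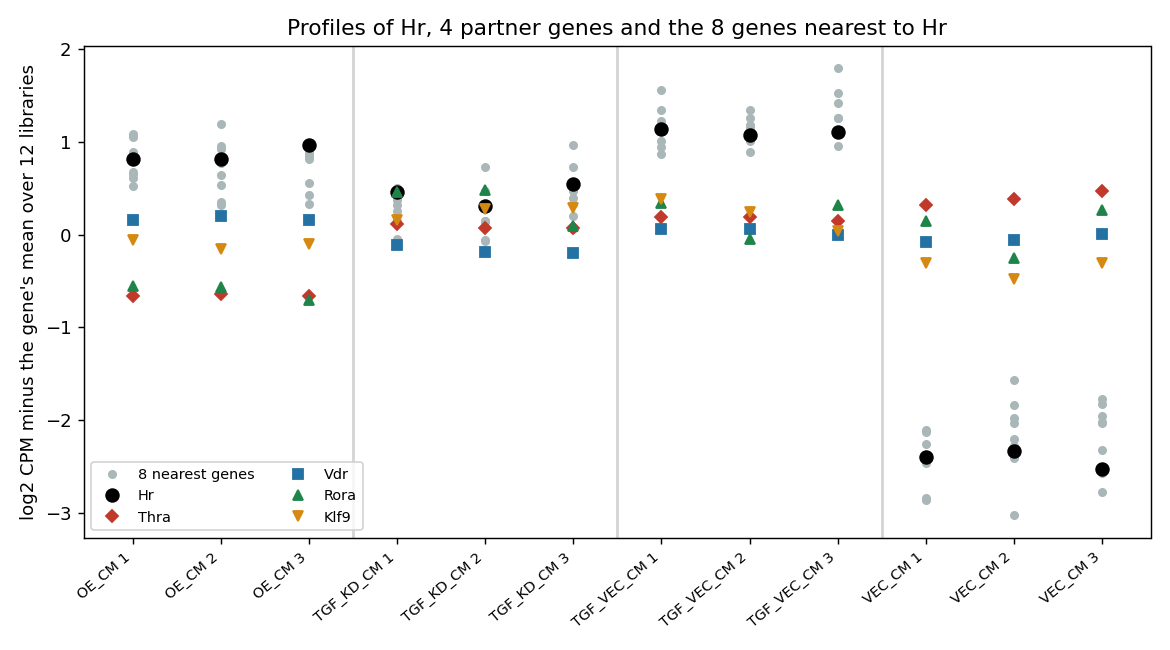
Log2 CPM minus the gene's mean over 12 libraries (vertical axis) in each library (horizontal axis), for Hr, Thra, Vdr, Rora, Klf9 and the 8 genes nearest to Hr in grey. The grey points, chosen for likeness, follow Hr, with root mean square distances of 0.217 to 0.389, and Thra is farthest of the named genes at 1.68.

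Thyroid hormone enters cells through transporters, and deiodinases inside cells turn its prohormone into the active form or inactivate it. Of 8 genes of thyroid hormone supply in the table, 4 were high enough to test. Dio2, the activating deiodinase, had 6, 6, 5 and 4 counts in the 3 libraries of OE_CM, TGF_KD_CM, TGF_VEC_CM and VEC_CM together. The amino acid transporter Slc7a5, which also carries thyroid hormone, was abundant, at 288.0 ± 7.15 CPM in OE_CM, 205.1 ± 8.06 in TGF_KD_CM, 209.6 ± 11.9 in TGF_VEC_CM and 208.9 ± 5.63 in VEC_CM (SD, n = 3 each). Against VEC_CM, 1 of the 4 rose and 2 fell in OE_CM, where 28.4% of all genes rose and 25.7% fell. Slc7a5 rose (log2 0.46 ± 0.032 SE, edgeR adjusted p = 1.25e-16), and Slc7a8 (-1.22 ± 0.234) and Slc16a10 (-1.92 ± 0.704) fell. The fall of Slc16a10 rested on 7 counts in the 3 OE_CM libraries together, near the floor, and 30 in those of VEC_CM. None of the 4 passed in TGF_KD_CM against TGF_VEC_CM, where 43.3% of all genes did, and 1 rose in TGF_VEC_CM against VEC_CM (Slc7a8, 0.66 ± 0.200), where 58.3% passed. The list medians were -0.38, 0.30 and 0.17 in these comparisons.

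Genes known to answer to thyroid hormone in liver, heart or brain went both ways. The table held 19 other such genes, and 11 of them were tested. Of the 11, 3 rose, 2 fell and 6 did not pass in OE_CM against VEC_CM (45.5% passing, against 54.0% of all genes). The median log2 fold change was 0.05. With upper-quartile scaling 3 rose and 3 fell, with a median of -0.04. Atp2a2, the calcium pump of the sarcoplasmic reticulum, rose by 0.21 ± 0.024 SE and Fasn, the fatty acid synthase, by 0.17 ± 0.024, Mbp, a myelin protein gene, rose by 0.45 ± 0.101, and the pacemaker channel gene Hcn2 fell by 0.31 ± 0.049.

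With the microRNA inhibited, in TGF_KD_CM against TGF_VEC_CM, 5 of the 11 rose and 2 fell (4 and 2 with upper-quartile scaling). Of all genes 23.0% rose and 20.2% fell there. Cpt1a, which admits fatty acids to mitochondrial oxidation, rose by 0.17 ± 0.025 on the log2 scale, while Atp2a2 (-0.23 ± 0.024) and Hcn2 (-0.19 ± 0.047) fell. In TGF_VEC_CM against VEC_CM 3 rose and 4 fell, where 28.9% of all genes rose and 29.4% fell, with a median of 0.0041. Fasn fell by 0.78 ± 0.024, whereas Atp2a2 (0.31 ± 0.024) and Hcn2 (0.22 ± 0.047) rose.

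Other genes of vitamin D metabolism and response numbered 16 in the table, and 9 were tested. Against VEC_CM, 3 of the 9 rose and 5 fell in OE_CM (1 and 5 with upper-quartile scaling), where 28.4% of all genes rose and 25.7% fell, with a median log2 fold change of -0.08. Gadd45a, a growth arrest gene, rose to 100.2 ± 1.77 CPM in OE_CM, against 38.9 ± 2.75 CPM in VEC_CM (log2 1.36 ± 0.043 SE, edgeR adjusted p = 3.71e-38). Txnip, an inhibitor of thioredoxin (-1.06 ± 0.040), Spp1, which encodes osteopontin (-0.91 ± 0.030), and Cyp27a1, a sterol and vitamin D hydroxylase (-0.72 ± 0.181), fell.

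In both TGF-beta1 comparisons most tested genes of the vitamin D list moved with the sign of Hr. Of the 9, 1 rose and 5 fell in TGF_KD_CM against TGF_VEC_CM, where 23.0% of all genes rose and 20.2% fell, with a median of -0.17. Thbd, thrombomodulin, fell to 41.3 ± 3.22 CPM in TGF_KD_CM, against 80.3 ± 3.64 CPM in TGF_VEC_CM (log2 -0.96 ± 0.050 SE, edgeR adjusted p = 1.42e-25), and Lrp5, a Wnt co-receptor (-0.34 ± 0.033), and Spp1 (-0.25 ± 0.030) fell, while Gadd45a rose (0.63 ± 0.041). In TGF_VEC_CM against VEC_CM 7 rose and 1 fell, where 28.9% of all genes rose and 29.4% fell, with a median of 0.46. Thbd rose by 1.35 ± 0.051, Txnip by 0.73 ± 0.036, Gadd45a by 0.56 ± 0.044 and Lrp5 by 0.46 ± 0.033. The gene that fell was Spp1, opposite in direction to Hr. It averaged 1239.6 ± 36.2 CPM in TGF_VEC_CM and 1934.2 ± 91.8 CPM in VEC_CM. Thbd averaged 27.5 ± 1.80 CPM in OE_CM and 31.4 ± 0.768 CPM in VEC_CM, so it was not higher in OE_CM, where Hr was. Cyp27b1, the activating vitamin D hydroxylase, averaged 12.0 CPM in OE_CM, 11.0 in TGF_KD_CM, 10.8 in TGF_VEC_CM and 9.83 in VEC_CM.

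For ROR alpha, the readout was a list of 11 other genes of the ROR and REV-ERB axis, of which 9 were tested. Of these, 6 rose and 2 fell in OE_CM against VEC_CM (median log2 fold change 0.30), in TGF_KD_CM against TGF_VEC_CM 2 rose and 4 fell (-0.06), and in TGF_VEC_CM against VEC_CM 5 rose and 3 fell (0.21). That is 88.9%, 66.7% and 88.9% of the 9 passing, where 54.0%, 43.3% and 58.3% of all genes passed. With upper-quartile scaling 5 rose and 2 fell in OE_CM against VEC_CM, and 2 rose and 5 fell in TGF_KD_CM against TGF_VEC_CM.

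The clock transcription factor gene Clock rose in OE_CM against VEC_CM (0.41 ± 0.030) and in TGF_VEC_CM against VEC_CM (0.21 ± 0.031). Nr1d2, which encodes REV-ERB beta, rose in TGF_KD_CM against TGF_VEC_CM (0.49 ± 0.044), and Nfil3, a clock repressor gene, rose in TGF_VEC_CM against VEC_CM (0.69 ± 0.066).

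Coregulators of nuclear receptors went both ways. Of 20 RXR partners and coregulators, all tested, 8 rose and 7 fell in OE_CM against VEC_CM, but 3 rose and 10 fell with upper-quartile scaling, and 54.0% of all genes passed. Carm1, an arginine methyltransferase coactivator (0.41 ± 0.030), Rxra (0.40 ± 0.034) and Rxrb (0.36 ± 0.048) rose and Ncoa2, a p160 coactivator (-0.29 ± 0.043), fell. With the microRNA inhibited, in TGF_KD_CM against TGF_VEC_CM, 8 rose and 1 fell (6 and 3 with upper-quartile scaling), where 43.3% of all genes passed. Higher were Ncoa2 (0.34 ± 0.043), the acetyltransferase gene Ep300 (0.24 ± 0.032) and the corepressor gene Ncor1 (0.19 ± 0.027). In TGF_VEC_CM against VEC_CM 4 rose and 11 fell, where 58.3% of all genes passed, with Ncoa2 (-0.54 ± 0.043) and Ep300 (-0.29 ± 0.032) lower and Hdac1, a histone deacetylase gene (0.28 ± 0.036), and Rxrb (0.37 ± 0.047) higher.

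Relatives of hairless among the KDM3 histone demethylases and 3 genes reported as repressed by hairless in mouse skin made a list of 6, of which 4 were tested. Of the 3 reported targets, Sostdc1 had 1, 1, 2 and 1 counts and Dkkl1 2, 1, 30 and 3 counts in the 3 libraries of OE_CM, TGF_KD_CM, TGF_VEC_CM and VEC_CM together, too few to test. In TGF_KD_CM against TGF_VEC_CM 4 of 4 rose, where 23.0% of all genes did. Kdm3a, a histone demethylase gene, rose by 0.46 ± 0.038 SE, its relatives Kdm3b by 0.21 ± 0.056 and Jmjd1c by 0.12 ± 0.032, and Porcn, which encodes an acyltransferase of Wnt proteins and is among the reported hairless targets, by 0.65 ± 0.096 (edgeR adjusted p = 4.62e-08). Porcn had 12.3 ± 0.879 CPM in OE_CM, 13.3 ± 0.773 in TGF_KD_CM, 8.48 ± 0.819 in TGF_VEC_CM and 5.84 ± 0.468 in VEC_CM, so it was lowest where Hr was lowest. It rose by 1.07 ± 0.102 in OE_CM and by 0.54 ± 0.105 in TGF_VEC_CM, each against VEC_CM. The 2 of the 4 that rose in OE_CM against VEC_CM were Jmjd1c (0.39 ± 0.032) and Porcn, and in TGF_VEC_CM against VEC_CM 1 rose and 2 fell (2 and 2 with upper-quartile scaling). Of all genes 28.4% rose in the first of these comparisons, and 28.9% rose and 29.4% fell in the second.

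Klf9 also answers to glucocorticoids, so 11 other glucocorticoid responsive genes were read, of which 10 were tested. Of these, 1 rose and 8 fell in OE_CM against VEC_CM (median log2 fold change -0.33), and in TGF_VEC_CM against VEC_CM 2 rose and 7 fell (-0.39), the comparison in which Klf9 rose. In TGF_KD_CM against TGF_VEC_CM 6 rose and none fell (0.17), but 6 rose and 1 fell with upper-quartile scaling. Of all genes 25.7%, 29.4% and 20.2% fell in these comparisons, and 28.4%, 28.9% and 23.0% rose. The kinase gene Sgk1 rose in OE_CM (1.10 ± 0.044), where Cebpd (-1.56 ± 0.137) and Klf15 (-1.11 ± 0.093), both transcription factor genes, and the glucocorticoid receptor gene Nr3c1 (-0.36 ± 0.033) fell. The metallothionein genes Mt1 (-0.78 ± 0.027) and Mt2 (-0.74 ± 0.041) fell in TGF_VEC_CM against VEC_CM.

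The other nuclear receptor genes went both ways. Of 41 besides the 4 partners, 31 were tested, and 7 rose and 15 fell in OE_CM against VEC_CM (5 and 19 with upper-quartile scaling), 12 rose and 6 fell in TGF_KD_CM against TGF_VEC_CM, and 9 rose and 12 fell in TGF_VEC_CM against VEC_CM. That is 71.0%, 58.1% and 67.7% of the 31 passing, where 54.0%, 43.3% and 58.3% of all genes passed. With upper-quartile scaling 11 rose and 7 fell in TGF_KD_CM against TGF_VEC_CM, and 10 rose and 11 fell in TGF_VEC_CM against VEC_CM. Rarg, a retinoic acid receptor gene, fell in OE_CM (-0.39 ± 0.032), and Pparg, the receptor gene of adipocyte differentiation, fell in TGF_VEC_CM (-0.44 ± 0.034), each against VEC_CM. Nr4a3, an orphan receptor gene of the immediate early type, fell in TGF_KD_CM against TGF_VEC_CM (-2.05 ± 0.290) and Nr1h3, a liver X receptor gene, rose there (0.47 ± 0.061).

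**Figure D4:**
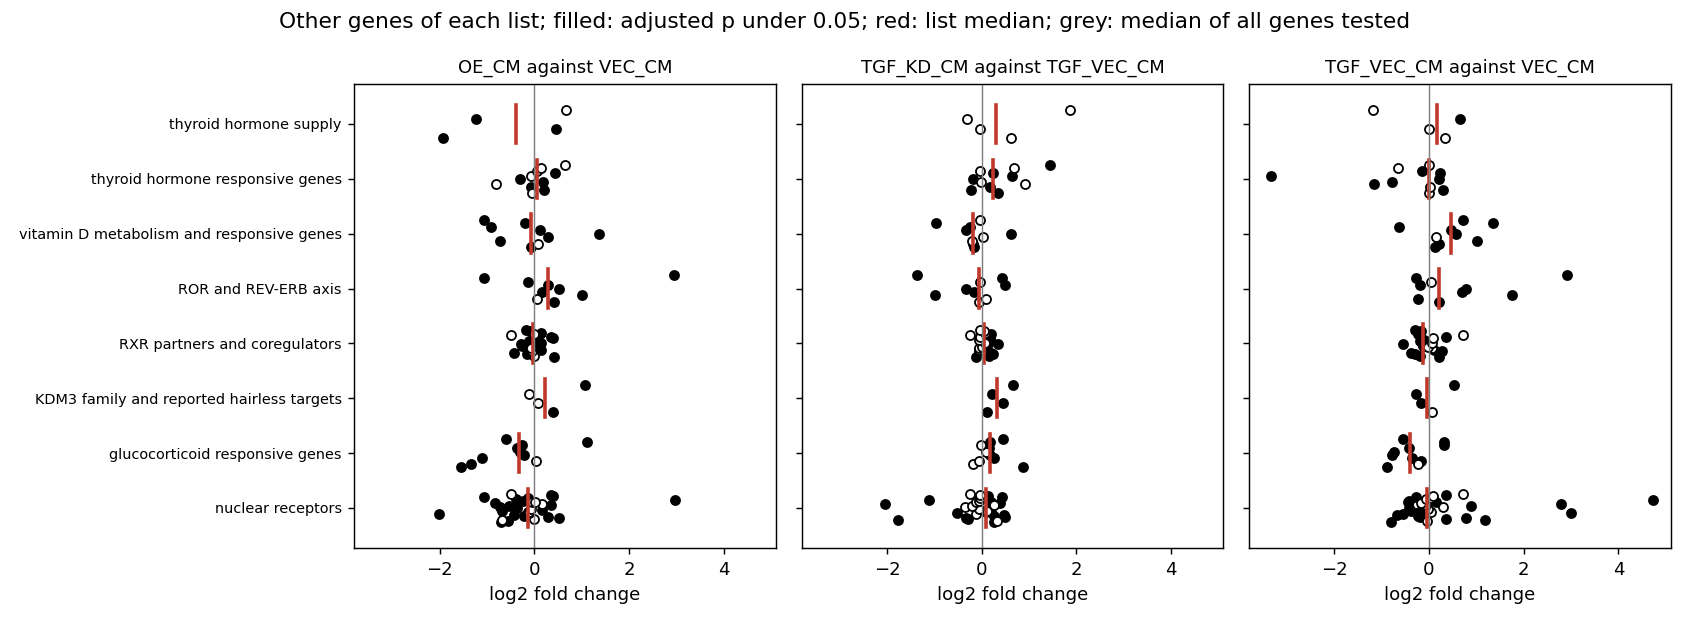
Log2 fold changes (horizontal axes) of the tested genes of each list, without the 7 genes, one panel per comparison, first-named group over the second; filled points passed an adjusted p of 0.05, red bars are list medians and the grey line is the median of all genes tested. The median of the vitamin D list was -0.08, -0.17 and 0.46 in the 3 panels, and that of the thyroid hormone responsive list 0.05, 0.24 and 0.0041.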

How the data were processed

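Messenger RNA was sequenced from 12 libraries of mouse cardiac fibroblasts, 3 in each of 4 groups taken from the sample titles. Per the labels' protocols, a SMARTER mRNA library kit was used on 1.3 µg of RNA. The authors deposited a table of raw read counts for 24619 gene symbols and a table of FPKM values for the same genes and libraries. Each deposited FPKM is the count over the column total and a single gene length, checked for all 24619 genes to within 0.01%. Per the submitters' processing notes the build was GRCm38 (mm10). Aligner, counting program, annotation and strand setting: not given in the sources used here.

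Counts were fitted with edgeR 4.0.16 in R 4.3.3 (TMM, filterByExpr, robust quasi-likelihood, 1 mean per group, all 12 libraries). The filter kept 14400 genes and removed 10219, with a common biological coefficient of variation of 0.0341. Two-sided p-values were adjusted over the 14400 genes by Benjamini-Hochberg, and the threshold was 0.05. SE is the log2 fold change divided by the square root of F. CPM are TMM-scaled, and log CPM used a prior count of 2. The scripts were tested on simulated data. Alternatives used upper-quartile or RLE factors, DESeq2 1.42.0, no filter, a filter of 1 CPM in 3 libraries, only the groups compared, a replicate block, limma 3.58.1 on log2(FPKM + 1) and leaving out each library. Positions and promoters come from RefSeq, overlaps and exonic lengths from GENCODE M21.

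The 7 genes and the lists were chosen with earlier results of these data known. Named were the 7 genes, genes overlapping them, up to 4 genes of smallest p per list and comparison among those past the threshold, and the 8 genes nearest to Hr. A few genes that this rule names are not reported here by name. No replicate pair agreed within sampling noise (chi-square per gene 2.93 to 4.29). Deviations of same-numbered libraries correlated positively but weakly, with r of at most 0.0436, so replicate numbers were not taken as pairs.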

Additional observations from a re-analysis of the deposited data

How the results depend on the processing

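The log2 fold changes of the 5 genes tested were recomputed in the 3 comparisons under the alternatives listed above, which gave 207 values. Of these values, 197 kept direction and call or moved by less than the replicate spread. None changed sign where the value had been called. On log2(FPKM + 1) with limma, Hr stood at 2.40 in OE_CM and 2.73 in TGF_VEC_CM against VEC_CM, and 3 rather than 5 of the 7 genes passed in OE_CM; Rora did not pass the FPKM filter, and the pseudocount shrinks differences of low genes by construction. In OE_CM against VEC_CM with upper-quartile factors, all 5 log2 fold changes were lower than in the main fit. They were 3.21 for Hr, -1.14 for Thra, 0.13 for Vdr, -0.77 for Rora and 0.17 for Klf9. The median of all genes was lower too, at -0.095 against -0.0081. Of the 5 genes, Thra and Vdr moved by more than the replicate spread. With limma, Vdr and Klf9 moved to 0.14 each. The cause was not tested. Calls were lost for Thra in TGF_KD_CM against TGF_VEC_CM and for Vdr in TGF_VEC_CM against VEC_CM under the settings given with those results.

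Leaving out each library in turn gave Hr a log2 fold change of 3.25 to 3.34 in OE_CM against VEC_CM, -0.74 to -0.62 in TGF_KD_CM against TGF_VEC_CM and 3.50 to 3.57 in TGF_VEC_CM against VEC_CM, with 7176 to 7366, 5576 to 5820 and 7810 to 7940 genes called. It left 4 to 5, 3 and 3 to 4 of the genes called. In the unfiltered fit the smallest adjusted p of Thrb or Cyp24a1 was 0.273 (edgeR).

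Deviations of same-numbered libraries correlated with r of 0.0193 to 0.0436 between OE_CM and VEC_CM, 0.000298 to 0.0301 between TGF_KD_CM and TGF_VEC_CM and 0.00807 to 0.0417 between TGF_VEC_CM and VEC_CM. With a replicate block 7894, 6381 and 8521 genes were called, Hr stood at 3.30, -0.67 and 3.54, and the block changed no call of the 7 genes. At this depth Thrb and Cyp24a1 lay at the counting floor and Rora rested on 62 to 166 counts per library, so these 3 genes carry the least precise values.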

Other observations

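Among the nuclear receptor genes, Rarb, which encodes a retinoic acid receptor and was chosen after its values were seen, was highest in TGF_VEC_CM and lowest in VEC_CM, as Hr was. It averaged 0.313 ± 0.173 CPM in OE_CM, 0.487 ± 0.206 in TGF_KD_CM, 1.05 ± 0.190 in TGF_VEC_CM and 0.0364 ± 0.0315 in VEC_CM (SD, n = 3 each), the last resting on 4 counts in all. Nr1i2, the pregnane X receptor gene, also named after its values were seen, averaged 0.398 ± 0.0703 CPM in OE_CM, 2.38 ± 0.572 in TGF_KD_CM, 3.43 ± 0.418 in TGF_VEC_CM and 0.428 ± 0.0797 in VEC_CM. It was thus high in both TGF-beta1 groups and low in both other groups, unlike Hr, which was high in OE_CM as well.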
